A study of Mus musculus with 2 samples.

Results

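Dual specificity MAPK phosphatases remove phosphate from both the threonine and the tyrosine of the activation loop of mitogen-activated protein kinases (MAPKs), and so turn these kinases off. The 10 genes described here, Dusp1, Dusp4, Dusp5, Dusp6, Dusp7, Dusp8, Dusp10, Dusp14, Dusp16 and Dusp22, were taken by name, not by a cut on their values but with earlier results of these data known, from the 24532 gene IDs of the deposited table. RNA had been sequenced from muscle stem cells, which lie beside the fibres of skeletal muscle and are defined by Pax7, freshly sorted from limb muscle of male mice on a C57BL/6 background. There were 2 libraries, 1 labelled wild type (WT) and 1 labelled dKO. The dKO genotype combines Pax7-CreER, a tamoxifen-inducible Cre recombinase expressed from the Pax7 gene, with a Cre-deletable allele and with Esr2–/–, loss of the gene of estrogen receptor beta. Esr2 itself was near the lower end of detection, and its reads were not absent from dKO (71 counts in WT and 45 in dKO), but the deleted part of the gene is not stated, so these counts do not check the label. The protocol given for both libraries was oral tamoxifen (20 mg/mL) for 5 days at 3 months of age. Whether the WT mice carried Pax7-CreER, how many mice were pooled, and what the mark 6M in both titles stands for is nowhere stated in the labels. Deletion by Pax7-CreER reaches cells that express Pax7, and the sort kept Vcam1-positive cells and discarded those with CD31, CD45 or Sca1. With 1 library per group no difference has a replicate check and no test between genotypes was possible, so each statement compares these 2 libraries only.

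Members of the family are commonly divided by where they act and on which kinase. Dusp1, Dusp4 and Dusp5 encode nuclear enzymes that are induced by the signals they switch off. Dusp6 and Dusp7 encode cytoplasmic enzymes selective for the kinase ERK, Dusp8, Dusp10 and Dusp16 encode enzymes that prefer the stress kinases JNK and p38, and Dusp14 and Dusp22 encode small atypical enzymes that lack the kinase-binding domain of the others. In muscle stem cells, p38 and ERK signalling are known to take part in leaving quiescence, and early response genes, Dusp1 among them, are known to be induced while muscle is digested and sorted.

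The libraries held 36636680 (WT) and 43699831 (dKO) reads assigned to transcripts. Values are CPM, counts per mega-read of a library size scaled by the trimmed mean of M values (TMM), and a gene was called measured when the higher library had at least 10 counts, which 14885 genes and all 10 members did. All intervals are exact 95% intervals and cover counting error only. Pax7 was read at 558 CPM in WT and 315 CPM in dKO, the lowest log2 ratio (−0.82) of the 15 muscle stem cell markers. Of these markers, 7 were above 0 and 8 below, with a median of −0.05, and Msc had the highest (1.15). Endothelial and immune markers were lower in dKO. The 15 endothelial markers summed to 798 CPM in WT and 371 in dKO, and the 15 measured immune markers to 238 and 80.0 CPM. In each list 12 of 15 were lower by 2-fold, beside 4.3% of all measured genes. The lists for fibro-adipogenic progenitors, tendon, mural cells and myofibres had negative median log2 ratios (−1.26, −0.71, −0.50 and −0.50). By 2-fold, 8 of 12 progenitor genes were lower, 2 of 7 for tendon, 3 of 10 for mural cells and 0 of 12 for myofibres. The glial list had a positive median (0.15, 6 of 8 genes above 0), although its sum was 693 CPM in WT and 663 in dKO. The 10 mural markers summed to 2854 CPM in WT and 2907 in dKO. Among them only Notch3 had a positive log2 ratio (0.54), at 1201 CPM in WT and 1741 in dKO, and 9 had negative ones. The only listed marker at 0 in a library was Cd3e (0 and 2 counts). In these bulk libraries fewer cells of a type and less RNA per cell cannot be told apart, and the part of other cell types in the values below was not tested.

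None of the 10 phosphatase genes was 2-fold apart between the libraries, but their levels spanned 2 orders of magnitude and their ratios were not all in the same direction. Dusp10, Dusp14 and Dusp16 had the highest dKO to WT ratios (1.58, 1.46 and 1.29), Dusp7 and Dusp4 the lowest (0.583 and 0.741), and Dusp6, the ERK-selective enzyme, had a ratio of 1.01. Among all measured genes, 6.22% were 2-fold apart in either direction (1.92% higher and 4.3% lower in dKO), and a count of 0 among 10 genes cannot be told from that background. At a 1.5-fold line, 1 member was higher (Dusp10) and 1 lower (Dusp7), against a background of 22.1% in either direction (8.98% higher and 13.1% lower). The median log2 ratio of the members was 0.11, beside −0.02 over all measured genes. It was −0.14 under library totals, with 3 members above 0 and 7 below, and 0.02 after removal of a trend on abundance and length.

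The per-length levels place Dusp1 far above the rest of the family. Per kilobase of transcript, the order of the 10 genes was the same in both libraries: Dusp1, Dusp8, Dusp10, Dusp16, Dusp5, Dusp6, Dusp22, Dusp14, Dusp4 and Dusp7. Counting intervals of neighbours in this order overlapped for Dusp14 and Dusp4 in WT, and for Dusp6 with Dusp22 and Dusp22 with Dusp14 in dKO. Dusp1 was at 379 CPM per kilobase in WT and 413 in dKO, above 98.9% and 98.7% of measured genes. Dusp8 followed at 50.6 and 54.1 CPM per kilobase, above 92.0% and 90.7% of measured genes. At the other end, Dusp7 was at 3.32 and 1.94 CPM per kilobase, above 37.7% and 31.9%. By reads, Dusp1 alone took 60.5% of the members' reads in WT and 59.0% in dKO, and Dusp8 a further 20.0% and 19.2%.

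**Figure D1:**
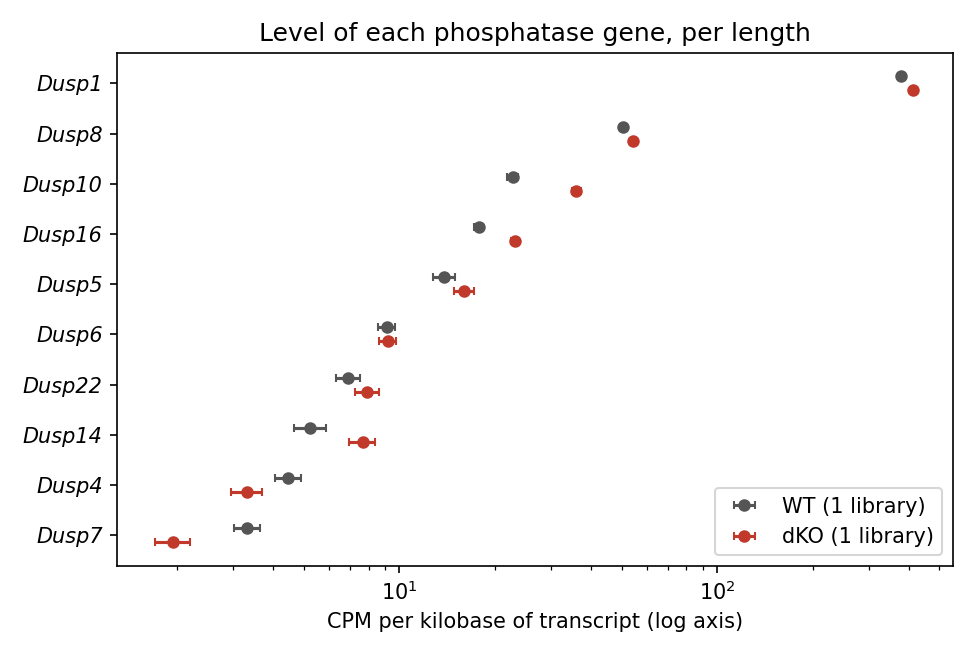
Level of each of the 10 phosphatase genes in CPM per kilobase of transcript (log axis), WT in grey and dKO in red, 1 library each, with 95% Poisson counting intervals. The order from Dusp1 at the top to Dusp7 at the bottom is the same in both libraries, and the points of Dusp6 lie almost on each other.

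The windows before the transcript starts used for the most abundant members and for Dusp5 hold response elements that few windows carry. They are printed for that reason. Promoter sequences came from RefSeq on GRCm38.p6, which held a window for 9 of the 10 genes. The windows of Dusp8, Dusp14 and Dusp16 lie inside the gene's span, before an internal start. For Dusp8 the gene's 5′ end is at 142095907. The Dusp7 window overlaps the first bases of its gene. Which starts were used in these cells was not tested. Each printed sequence is the 250 bases before the transcript start used there, 5′ to 3′ on the gene's strand, with the named element in capitals. For Dusp1 (chr17:26508473-26508722, minus strand) and Dusp8 (chr7:142095285-142095534, minus strand) the capitals mark the cAMP response element TGACGTCA. For Dusp5 (chr19:53528895-53529144, plus strand) they mark CArG boxes, the binding element of serum response factor.
Dusp1: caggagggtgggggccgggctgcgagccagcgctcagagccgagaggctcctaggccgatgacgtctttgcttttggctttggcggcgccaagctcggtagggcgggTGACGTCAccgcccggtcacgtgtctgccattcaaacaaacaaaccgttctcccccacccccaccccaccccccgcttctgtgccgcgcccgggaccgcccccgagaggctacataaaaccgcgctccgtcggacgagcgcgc
Dusp8: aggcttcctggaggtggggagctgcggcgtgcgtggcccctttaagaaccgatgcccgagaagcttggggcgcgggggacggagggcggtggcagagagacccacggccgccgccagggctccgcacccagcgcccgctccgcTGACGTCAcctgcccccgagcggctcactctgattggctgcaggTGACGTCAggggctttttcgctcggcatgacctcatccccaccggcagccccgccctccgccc
Dusp5: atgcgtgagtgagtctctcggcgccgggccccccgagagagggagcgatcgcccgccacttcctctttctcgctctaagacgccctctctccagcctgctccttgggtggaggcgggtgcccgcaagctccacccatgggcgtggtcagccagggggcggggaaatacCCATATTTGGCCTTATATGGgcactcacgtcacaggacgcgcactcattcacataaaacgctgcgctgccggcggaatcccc

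The element TGACGTCA was found once for Dusp1, starting 143 bases before the transcript start, and at 2 places for Dusp8, 107 and 63 bases before it. Of all 32851 windows of this length in the table, 1.55% held this element at least once and 0.0304% at 2 or more places. The 2 members with it were those with the highest levels per length in both libraries, and their dKO to WT ratios, given below, were 1.09 and 1.07. The motifs were chosen after these values were seen, and a link of the element to level was not tested. Dusp5 had 2 CArG boxes, 82 and 72 bases before its start, side by side with no base between them. A CArG box was present in 1.47% of all windows, and 0.0183% held at least 2. Both strands were searched for each motif. The AP-1 site TGANTCA, the ETS site CCGGAAGT, the EGR site GCGTGGGCG, the TATA box TATAAA and the palindromic estrogen response element were found in 0 of the 9 windows, against 6.75%, 2.88%, 0.536%, 12.4% and 0.0639% of all windows, and the GC box GGGCGG in 7 of 9, against 32.7%. The members' windows had a GC content of 56.4% to 77.6%, above the median of 52.4% over all windows, and the shares were not matched on it. Such matches are letters in a window, and no binding was measured.

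With TMM scaling, the nuclear, inducible members were close in level between the 2 libraries, except for Dusp4. After removal of the trend on abundance and length, Dusp1 was at a log2 ratio of −0.37 and Dusp4 at −0.24. Dusp1 (Entrez ID 19252, chromosome 17, 26505591 to 26508472 on GRCm38), the early response phosphatase that acts on p38, JNK and ERK, had 29467 counts in WT and 32081 in dKO. These are 737 and 802 CPM, a ratio of 1.09 (1.07 to 1.11), so the 2 libraries differed by more than counting error but by little. The direction was opposite under library totals and after trend removal, as given below. Dusp5 (Entrez ID 240672, chromosome 19), which encodes a nuclear phosphatase specific for ERK, was read at 16.0 CPM in WT (640 counts) and 18.5 in dKO (740 counts), a ratio of 1.16 (1.04 to 1.29). Dusp4 (Entrez ID 319520, chromosome 8), another inducible nuclear enzyme, was at 10.8 CPM in WT (433 counts) and 8.02 in dKO (321 counts). It was 1.35-fold lower in dKO (1.17 to 1.56), and it was the member of this class with the lowest level per length. The 3 genes together had 763 CPM in WT and 828 in dKO, nearly all of it from Dusp1.

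The cytoplasmic ERK phosphatases differed from each other. Dusp6 (Entrez ID 67603, chromosome 10), a feedback inhibitor whose transcription is known to follow ERK activity, had 1021 counts in WT and 1028 in dKO, or 25.5 and 25.7 CPM. Its ratio of 1.01 (0.922 to 1.10) leaves room, by counting error alone, for a small difference in either direction. Dusp7 (Entrez ID 235584, chromosome 9) had 427 WT and 249 dKO counts, or 10.7 and 6.22 CPM. It was 1.72-fold lower in dKO (1.46 to 2.01), the lowest ratio of the 10, and 9.55% of measured genes had a lower log2 ratio than its −0.69. The 2 enzymes are close relatives with a shared preference for ERK, yet in these libraries the more abundant one had nearly equal levels and the scarcer one was lower in dKO.

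All 3 members that prefer JNK and p38 had ratios above 1, of which that of Dusp8 was below 1 under library totals and after trend removal. Dusp10 (Entrez ID 63953, chromosome 1), a phosphatase of p38 and JNK, had 2470 counts in WT and 3913 in dKO, or 61.7 and 97.8 CPM. It was 1.58-fold higher in dKO (1.51 to 1.67), the highest ratio of the family, and 93.0% of measured genes had a lower log2 ratio than its 0.65. Dusp16 (Entrez ID 70686, chromosome 6), which encodes a JNK-directed phosphatase, was at 91.0 CPM in WT (3640 counts) and 118 in dKO (4709 counts), a ratio of 1.29 (1.24 to 1.35). Dusp8 (Entrez ID 18218, chromosome 7), known for its expression in brain, heart and skeletal muscle, was at 244 CPM in WT (9753 counts) and 261 in dKO (10436 counts), a ratio of 1.07 (1.04 to 1.10). Summed, the 3 genes had 397 CPM in WT and 476 in dKO, a ratio of 1.20 (1.18 to 1.23), whereas the ERK-selective pair had 36.2 and 31.9 CPM, a ratio of 0.882 (0.817 to 0.951). Over library totals these ratios were 1.01 (0.986 to 1.03) and 0.739 (0.685 to 0.798), so the higher sum of the first class depends on the scaling. Under library totals Dusp8 was below 0 on the log2 scale (−0.16), while Dusp10 and Dusp16 were above it (0.40 and 0.12).

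The atypical members were among the least abundant. Dusp14 (Entrez ID 56405, chromosome 11), which encodes a small phosphatase known as a negative regulator of T cell receptor signalling, had 303 counts in WT and 442 in dKO, or 7.57 and 11.0 CPM. It was 1.46-fold higher in dKO (1.26 to 1.69). Dusp22 (Entrez ID 105352, chromosome 13, 30660059 to 30711232 on GRCm38), a small phosphatase reported to act in the JNK pathway, had 540 and 501 counts, or 13.5 and 12.5 CPM, a ratio of 0.927 (0.820 to 1.05). Its gene total did not differ beyond counting error at this scaling, but under library totals the ratio was 0.778 (0.687 to 0.880). Its transcript rows differed in opposite directions.

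**Figure D2:**
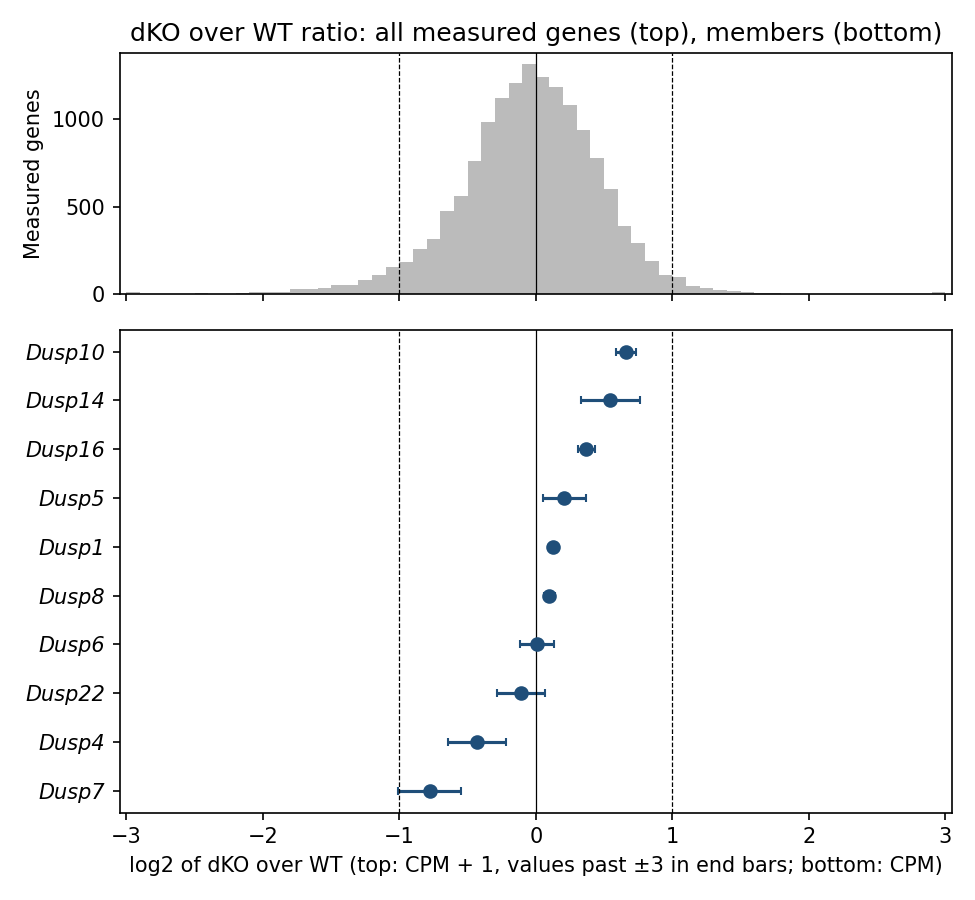
Top, the number of measured genes by log2 ratio of dKO over WT on CPM + 1. Bottom, the log2 ratio of CPM of each member with its 95% counting interval. All 10 members lie inside the dashed 2-fold lines, from Dusp10 (1.58-fold higher) to Dusp7 (1.72-fold lower).

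Dusp22 was divided in the table into rows of 1102 and 3058 bases, and these moved apart. The shorter row had 171 counts in WT and 263 in dKO, a ratio of 1.54 (1.26 to 1.88). The longer row, at 369 WT and 238 dKO counts, was 1.55-fold lower in dKO (1.31 to 1.83). The shorter row thus took 31.7% of the gene's reads in WT (exact Clopper-Pearson interval 27.8 to 35.8) and 52.5% in dKO (48.0 to 56.9). In GENCODE M21 on GRCm38, the gene's RefSeq transcripts correspond to models of 1161 and 3015 bases that share 6 introns. The shorter model has a 7th intron and a last exon at chr13:30710706-30711231, and the longer one ends in a single exon at chr13:30708677-30711231. Neither model equals a deposited row in length, so the tie of row to model was not made. Rows that move apart are common in this table: of 3052 genes with at least 2 rows of 100 counts or more, 918 (30.1%) had a row at a log2 ratio of 0.5 or above and another at −0.5 or below, as Dusp22 had (0.52 and −0.56). The other member with several rows, Dusp16, had all its reads in the row of 5112 bases and 0 in the row of 4146 bases in both libraries.

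**Figure D3:**
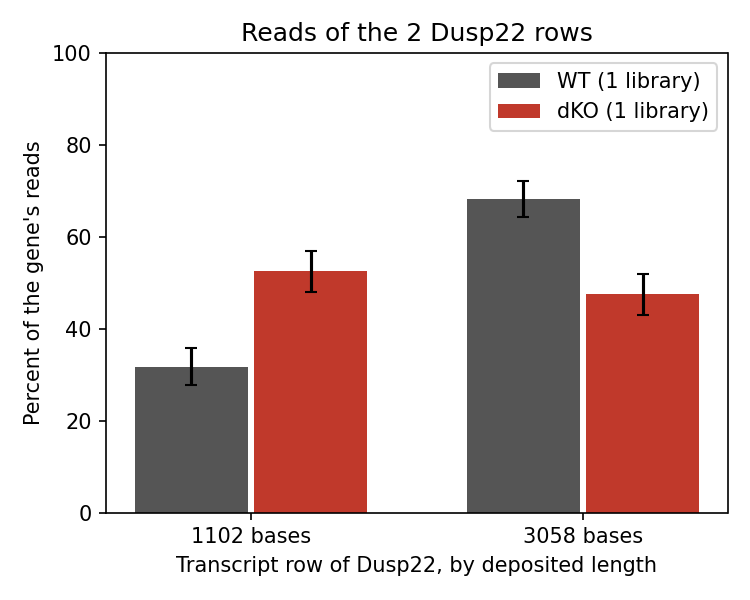
Percent of the reads of Dusp22 in each of its 2 transcript rows, WT in grey and dKO in red, 1 library each, with exact 95% binomial intervals. The row of 1102 bases holds 31.7% in WT and 52.5% in dKO, and the row of 3058 bases the rest.

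Directions held for 6 of the 10 members under each scaling, pseudocount, row and trend setting tried. Dusp10, Dusp14 and Dusp16 were above 0 on the log2 scale and Dusp4, Dusp7 and Dusp22 below it in all 7 settings. The counting interval of Dusp22, however, included no difference. These settings are fewer checks than their number: a pseudocount cannot turn a sign, and median-ratio factors moved the values little. On the per-length scale Dusp22 turned to the other side, at 6.89 CPM per kilobase in WT and 7.91 in dKO, because its shorter row was the one with more reads in dKO. With library totals alone, the median over all measured genes shifted by −0.22 (log2), and there Dusp1, Dusp5, Dusp6 and Dusp8 had values of −0.13, −0.04, −0.24 and −0.16. With a trend on abundance and transcript length removed, Dusp1 was at −0.37 and Dusp8 at −0.14. No direction is therefore given for these 4 genes. Dusp10 ranged from 0.40 to 0.66 over the settings and Dusp7 from −0.92 to −0.48.

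**Figure D4:**
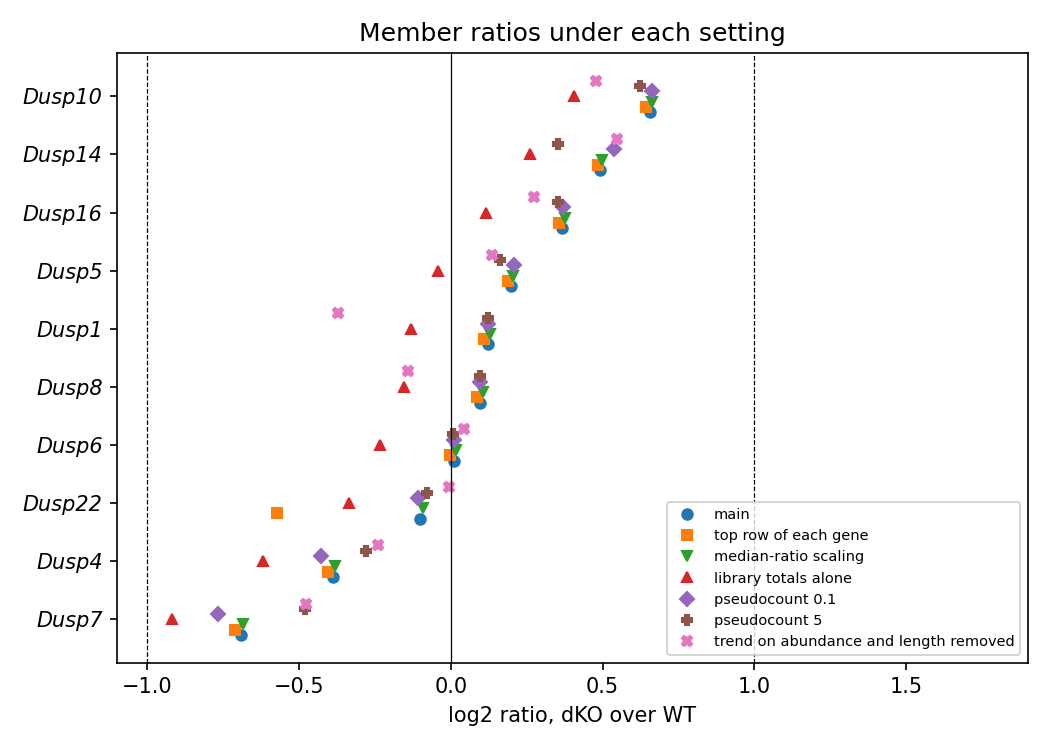
Log2 ratio of each member, dKO over WT, under the 7 settings that change a value (symbols), with dashed lines at 2-fold. Dusp10, Dusp14 and Dusp16 stay to the right of 0 and Dusp4, Dusp7 and Dusp22 to the left, while Dusp1, Dusp5, Dusp6 and Dusp8 have values on both sides.

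Most of the remaining genes of the wider phosphatase family had log2 ratios below 0. Of 22 listed genes, 20 were measured, 0 were 2-fold apart on CPM + 1 (2 were lower with a pseudocount of 0.1), 16 were below 0 and 4 above, beside 52.4% below 0 over all measured genes, and the median log2 ratio was −0.20, or −0.43 under library totals. The most abundant were the cofilin phosphatase gene Ssh2 (191 CPM in WT and 154 in dKO) and the RNA phosphatase gene Dusp11 (133 and 121 CPM). Other MAPK phosphatases of the same type, named here after their values were seen, were scarce. Dusp2, the nuclear enzyme known from immune cells, had 176 and 217 counts (ratio 1.23, 1.01 to 1.51). Dusp9, the third of the cytoplasmic ERK group, had 39 and 10 counts and was 3.90-fold lower in dKO by CPM (1.91 to 8.76), but had a log2 ratio of −0.66 on CPM + 1, inside the 2-fold line. Dusp27, named after its values were seen, had 35 and 5 counts and was lower in dKO by CPM (interval 2.73-fold to 22.9-fold), with a log2 ratio of −0.74 on CPM + 1. Both genes of that group that were lower, Dusp7 and Dusp9, were thus the less abundant ones beside Dusp6.

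The measured MAPK genes were all inside the 2-fold line, and some scarce ones were lower in dKO by CPM. Mapk4, also scarce and named after its values were seen, was not (99 and 103 counts, ratio 1.04, 0.782 to 1.38). Of 12 measured MAPK genes, 0 were 2-fold apart on CPM + 1 (2 were lower with a pseudocount of 0.1 and 1 under library totals) and the median log2 ratio was −0.09 (−0.33 under library totals), with Mapk14 (the p38 alpha gene) at 3999 counts in WT and 3133 in dKO. Mapk11, the p38 beta gene, named after its values were seen, had 76 and 21 counts and was 3.62-fold lower by CPM (2.21 to 6.18), with a log2 ratio of −0.93 on CPM + 1. Mapk13, the p38 delta gene, named likewise, had 10 and 0 counts. Of the kinases that activate them, all 7 MAP2 kinase genes were above 0 (6 of 7 under library totals), beside 47.6% of all measured genes, with a median of 0.50 (0.25 under library totals), and 1 of 7 was 2-fold higher, beside 1.92% of all measured genes. That gene was Map2k3, whose product activates p38, with 7986 counts in WT and 27478 in dKO, 3.44-fold higher (3.35 to 3.53). Map2k2, an ERK activator, was at 74.7 and 117 CPM. Among 21 measured MAP3 kinase genes the median was −0.15 (−0.40 under library totals). By 2-fold, 0 were higher and 1 lower, beside 1.92% and 4.3% of all measured genes. The lower gene was Map3k19, with 49 and 0 counts. The 95% interval of its fold reaches down to 12.8-fold lower. Against a set floor of 3 counts in the dKO library, the fold is 16.3. The abundant Map3k6 had a log2 ratio of −0.06.

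Genes known to respond to ERK had 1 of 18 members 2-fold higher and 0 lower, and a median log2 ratio of 0.19, or −0.06 under library totals. Fosl1, the AP-1 subunit, was the one past the line (2.29), while Errfi1, a feedback inhibitor of the EGF receptor with 90872 and 181413 counts, lay just inside it, and Egr1 was at 0.19. Of 22 other early response genes, Ier5 (1.11) and Myc (1.03) were 2-fold higher and 0 were lower, with a median of 0.19. With library totals as the scale 0 of these 22 were past the line and the median was −0.06, and after trend removal 0 were past it and the median was −0.10. Dusp6 and Dusp4, which are often read with these genes as ERK-responsive, had log2 ratios of 0.01 and −0.39, and Dusp1, an early response gene itself, 0.12. Over the 112 measured pathway genes outside the family, 6 were 2-fold higher and 1 lower, beside 1.92% higher and 4.3% lower of all measured genes, with a median of 0.06. Under library totals the split turned to 3 higher and 6 lower and the median to −0.17.

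**Figure D5:**
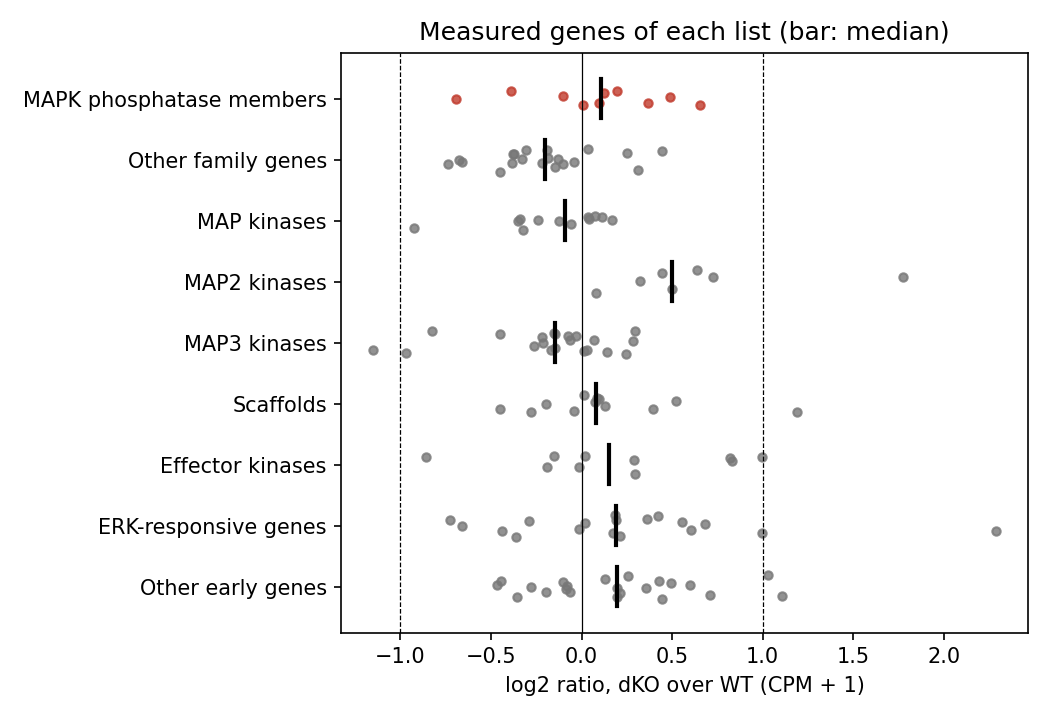
Log2 ratio on CPM + 1, dKO over WT, of each measured gene of the phosphatase members (red) and of lists of related genes (grey), with each list's median as a bar and dashed 2-fold lines. All 10 members lie inside the lines. All 7 MAP2 kinase genes lie right of 0, with Map2k3 at 1.78.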

How the data were processed

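RNA was measured in 1 WT and 1 dKO library of sorted muscle stem cells. Raw read counts were deposited for 36780 transcript rows, each with its gene ID and length in bases, per the file headers. The tools named in the submitters' processing notes are TopHat2 2.0.9, bedtools and edgeR, on mm10, without their roles. How reads were counted, on which annotation and with what strand setting is stated in none of the sources used here, and reads of overlapping or antisense genes cannot be told apart. RefSeq's GRCm38.p6 gene table gave 24462 of the gene IDs a symbol, and IDs without one took 0.314% (WT) and 0.401% (dKO) of reads. One gene of the dKO genotype and a few others are not reported here.

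A gene's rows were summed. Library sizes were scaled with TMM in edgeR 4.0.16 (R 4.3.3), with factors of 1.09 (WT) and 0.916 (dKO), so 1 count was 0.0250 CPM in each library. Log2 ratios used CPM + 1, which shrinks the ratios of scarce genes, and folds used CPM with an exact conditional binomial 95% interval. A measured gene was called apart at 2-fold. Levels per length are the sum over rows of CPM per kilobase. The gene IDs with several rows number 6494. Alternatives were the row with the highest share (top row), median-ratio factors (DESeq2 1.42.0), library totals, pseudocounts of 0.1 and 5, minimum counts of 0 and 100, lines of 1.5-fold and 4-fold, and removal of a cubic trend on abundance and length. The 2-fold call and the interval of the ratio, the latter with library totals, were tested on simulated counts that held counting error only. The other steps were not simulated.

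The rule for named genes took all members and, of each other list, up to 4 genes past the 2-fold line with the largest log2 ratio, or the 2 most abundant where fewer than 2 were past it. The marker lists of muscle stem cells, fibro-adipogenic progenitors, tendon, mural, glial and myofibre cells had medians of −0.05, −1.26, −0.71, −0.50, 0.15 and −0.50. The members and lists were chosen with earlier results of these data known. The motifs, the printed promoters and the count of genes with rows that move apart were chosen after the values were seen.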

Additional observations from a re-analysis of the deposited data

How the results depend on the processing

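No member was 2-fold apart in any setting with the 2-fold line. The 1.5-fold line gave 1 member higher and 1 lower. Genes 2-fold higher and lower numbered 286 and 640 in all, and 6 and 1 among the pathway genes, whose median was 0.06. Top rows gave 474 higher in all (936 lower), and 10 higher and 4 lower pathway genes. Library totals gave 130 and 1040 in all, 3 and 6 pathway genes, and a pathway median of −0.17. A pseudocount of 0.1 gave 698 and 1653 in all and 7 lower pathway genes, and one of 5 gave 154, 187 and 0. A minimum of 100 counts gave 0 lower pathway genes. The 1.5-fold line gave 1336 and 1955 in all and 16 and 9 pathway genes, and the 4-fold line 25, 56, 1 and 0. Trend removal gave 426 lower in all, and 3 higher and 0 lower pathway genes. Lower genes were 69.1% of calls, 88.9% under library totals, 58.1% after trend removal and 54.8% with a pseudocount of 5. Dusp22 was at −0.57 by its top row. Of the values for single genes and lists, 246 stayed inside the interval of the main value and 24 did not. Many of the 246 had little room to move. A fold line leaves a median unchanged, and the interval of the smallest lists is their whole range. Under library totals, Dusp4 and Dusp7 alone of the members stayed inside their intervals. Beyond the alternatives' own construction, the cause was not tested. No paired analysis was possible because each group has 1 library, and for the same reason no library could be left out. The lowest member count was 249, which limits Dusp7 to the interval given.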

Other observations

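Of the kinases downstream of the MAPKs and the phosphatases of other families, the abundant ones were mostly inside the 2-fold line and some scarce ones were lower by CPM. Of 10 measured effector kinase genes, 0 were past the line and the median log2 ratio was 0.15 (−0.09 under library totals). Rps6ka3, whose product is a ribosomal S6 kinase activated by ERK, was at 202 CPM in WT and 358 in dKO, and Mknk2, the gene of a kinase of the translation factor eIF4E, at 420 and 368 CPM. Mapkapk2 encodes the main kinase that p38 activates and was named after its value was seen. Its counts were 7113 and 14217, with a log2 ratio of 0.99, just inside the line. Rps6ka1, another S6 kinase gene, named likewise, had 192 and 88 counts and was 2.18-fold lower by CPM (1.69 to 2.84), with a log2 ratio of −0.86 on CPM + 1. Mapkapk3, named likewise, went the other way. It had 476 and 879 counts and was 1.85-fold higher by CPM (1.65 to 2.07), with a log2 ratio of 0.83. Among 10 measured genes of other phosphatases that act on MAPKs, 1 was 2-fold higher and 0 lower, beside 1.92% and 4.3% of all measured genes. Such a count cannot be told from that background. The median was 0.12 (−0.12 under library totals). Ppp2ca, the catalytic subunit gene of protein phosphatase PP2A, with 8033 WT and 16803 dKO counts, was 2.09-fold higher (2.04 to 2.15) but not past the line under library totals or with the trend removed, and Ppm1a, a metal-dependent phosphatase gene, was at 111 and 149 CPM. The tyrosine phosphatase genes Ptprr (76 and 20 counts, 3.80-fold lower by CPM, 2.30 to 6.57) and Ptpn7 (22 and 0 counts), both named after their values were seen, were inside the line on CPM + 1, and a pseudocount of 0.1 called 2 genes of this list lower.

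Scaffold genes of the pathway had 1 of 12 members 2-fold higher and 0 lower, beside 1.92% and 4.3% of all measured genes. By row sums, such a count cannot be told from that background. The count depended on how rows were handled. By the top row of each gene, 4 of 12 were higher and 0 lower, beside 474 higher and 936 lower of 14861 measured genes. The median was 0.08 (−0.16 under library totals). Ksr2, a scaffold of the ERK cascade, had 9 WT and 72 dKO counts (log2 ratio 1.19), at a level near the lower end of detection. Spag9, a JNK and p38 scaffold gene, was at 0.39 when its rows were summed and at 2.07 by its top row. Mapk8, the JNK1 gene, named after its value was seen, was at 0.17 by the sum and 1.33 by its top row. As with Dusp22, the rows of these genes moved apart.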
